A study of Rattus norvegicus with 12 samples.

Results

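The genes described here are the receptors, ligands and targets of Notch signalling in the prepubertal rat mammary gland. The list holds 10 genes, the receptors Notch1, Notch2, Notch3 and Notch4, the ligands Jag1, Jag2, Dll1 and Dll4, and the targets Hes1 and Hey1. It was chosen by a measured value, since Notch3 had been seen to be about 2-fold lower after the high fat diet before any adjustment. Of the 10 genes, 9 stood among the 16511 genes of the count table, and Jag2 was not analysed here. The filter on low counts kept 9382 genes, among them 8 of these 9, and Hey1 was left out by it.

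By their labels, the 12 libraries were made from whole, snap-frozen mammary glands of rat offspring at postnatal day (PND) 21. The study's methods describe RNA sequencing of microdissected epithelium from high butterfat glands with and without bisphenol A, and the labels were followed here. Adipocyte and fibroblast markers were high in every library (Adipoq at 1564 to 7194 CPM and Col1a1 at 9240 to 19364 CPM). In the HFB group (6 glands) the pregnant dams had eaten a high fat butter diet, and in the CTL group (6 glands) the control AIN diet. Every gland came from a litter of its own, so the spread within a diet is a spread between litters. The deposited text has the newborns on the AIN diet in both groups, but it gives the end of the exposure in 2 ways that do not match, and the study's methods, which name Sprague-Dawley rats, place the butterfat diet around mating and in gestation. A whole gland at this age is mostly fat pad, with a small ductal tree and vessels, and it can hold a lymph node. Libraries are called by diet and library number, HFB 1 to HFB 6, CTL 7 to CTL 11 and CTL 14.

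Notch receptors sit in the cell membrane and bind Jagged and Delta-like ligands on a neighbouring cell. Binding lets ADAM proteases and then the gamma-secretase complex cut the receptor, and the freed intracellular domain enters the nucleus, joins the DNA-binding protein RBPJ and the coactivator Mastermind, and switches on the HES and HEY repressors. In the mammary gland the pathway is known for the choice of the luminal fate by progenitor cells. In vessels, Notch1, Notch4 and Dll4 are known from endothelium, and Notch3 from pericytes and smooth muscle, the mural cells.

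Library totals ran from 2320267 to 2944680 counts, with similar ranges in both diets. A level of 3 counts, used as the smallest detectable, equalled 0.949 to 1.3 CPM (counts per 1000000 counts of the library's TMM-scaled total), a limit for counting error only. Replicates were distinct libraries, since the chi-square between the counts of any of the 30 pairs of 1 diet was at least 6.69 per degree of freedom. HFB 6 and CTL 14 stood apart from the other libraries. Their lymphoid scores (the mean log2 CPM of T and B cell markers) were 6.91 and 7.08, against 0.84 to 5.12 in the others, and their adipocyte scores were 9.53 and 9.45, against 10.66 to 11.06. Of the tissue markers, Krt8, Epcam and Adipoq were counted in every library, and Cldn3 and Cldn5 were at 0 in all of them. Several values that rest on HFB 6 or CTL 14 are also given without 1 or both of them.

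Among the receptors, Notch3 had the largest difference between the diets. Its level was 16.0 CPM in HFB 1, 9.0 in HFB 2, 9.75 in HFB 3, 16.8 in HFB 4, 9.28 in HFB 5 and 9.22 in HFB 6. In the control glands it was 20.6 CPM in CTL 7, 11.9 in CTL 8, 17.8 in CTL 9, 21.1 in CTL 10, 27.8 in CTL 11 and 43.7 in CTL 14. All 6 HFB glands lay under the CTL median, and 5 of 6 CTL glands lay above the highest HFB gland, while CTL 8 lay inside the HFB range, so the groups overlapped. The means were 11.7 ± 3.69 CPM (SD, n = 6) with HFB and 23.8 ± 11.02 CPM with CTL, a ratio of 0.491. The fitted log2 fold change, HFB minus CTL, was -1.02 (SE 0.30). This contrast chose the list, so it is given as a description and no p-value is attached to it. Over the whole table no gene passed an adjusted p of 0.05 (edgeR quasi-likelihood test, Benjamini-Hochberg adjustment, 0% of 9382 genes called, lowest adjusted p = 0.999), and DESeq2 called 0 as well. At an unadjusted p under 0.05 edgeR called 220 genes and DESeq2 271.

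The Notch3 difference was smaller without CTL 14. Without this library the log2 fold change was -0.75 (SE 0.26), and without HFB 6 and CTL 14 it was -0.69 (SE 0.26), with means of 12.2 ± 3.90 CPM and 19.8 ± 5.78 CPM (SD, n = 5) and a ratio of 0.614. Leaving out any other single library gave values from -1.16 to -0.96. The sign was negative in each of these fits and in every normalization, filter and model tried.

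Notch1, the receptor most studied in cell fate decisions, differed less. With HFB its lowest, median and highest levels were 22.0, 32.0 and 44.4 CPM, and with CTL they were 18.2, 32.3 and 77.1 CPM. The ranges overlapped almost fully apart from CTL 14, which held the highest value. Its log2 fold change was -0.23 (SE 0.31), and 0.12 (SE 0.24) without CTL 14, so that the direction itself rested on this library.

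Notch4, a receptor known from endothelium, was even more dependent on 2 glands. Its lowest, median and highest levels were 8.12, 14.2 and 38.9 CPM with HFB and 8.90, 13.7 and 52.8 CPM with CTL. HFB 6 and CTL 14 held the high ends, and the next highest glands were at 18.3 and 15.7 CPM. The log2 fold change was -0.19 (SE 0.47), and it became 0.43 (SE 0.37) without CTL 14 and -0.60 (SE 0.43) without HFB 6. Without both libraries the means were 12.9 ± 4.03 CPM and 13.0 ± 2.49 CPM (SD, n = 5).

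Notch2 had the widest spread of the receptors. Its lowest, median and highest levels were 0.77, 6.55 and 19.3 CPM with HFB and 3.87, 11.7 and 18.6 CPM with CTL. HFB 5, with 2 counts, lay under the smallest detectable level, and HFB 6 (8 counts) and CTL 14 (11 counts) were the next lowest, although the totals of these libraries were not low. Their RNA quality cannot be read from counts per gene, and its part in these values was not tested. The log2 fold change was -0.56 (SE 0.55), and it ran from -1.01 without HFB 1 to -0.32 without HFB 5.

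**Figure D1:**
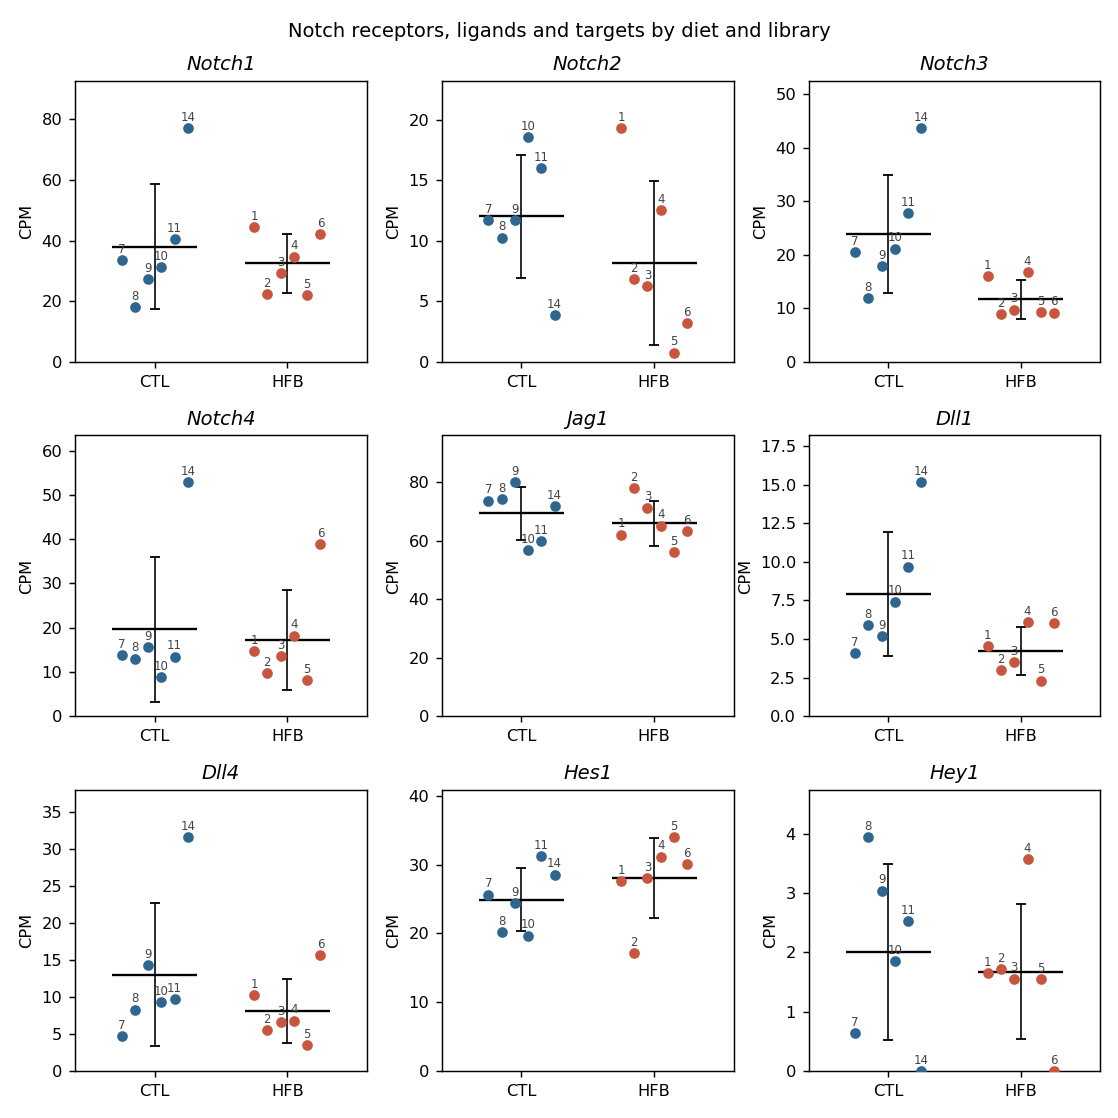
Level of each counted Notch gene in CPM (linear axes from 0) in the CTL (blue) and HFB (red) glands. Points are libraries with their number, horizontal lines are means and bars are SD (n = 6 per diet). For Notch3, 5 of 6 CTL glands sit above the highest HFB gland at 16.8 CPM, and for Notch4 the glands HFB 6 (38.9 CPM) and CTL 14 (52.8 CPM) sit far above the others.

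Among the ligands, Dll1 differed in the same direction as Notch3. Dll1 is a Delta-like ligand, and its lowest, median and highest levels were 2.32, 4.02 and 6.09 CPM with HFB and 4.11, 6.67 and 15.1 CPM with CTL. All 6 HFB glands lay under the CTL median and 3 of 6 CTL glands above the highest HFB gland, so the groups overlapped, at 6 to 43 counts per library. The log2 fold change was -0.89 (SE 0.36), and -0.58 (SE 0.33) without CTL 14.

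Dll4, the Delta-like ligand of sprouting vessels, had its lowest, median and highest levels at 3.48, 6.72 and 15.6 CPM with HFB and at 4.75, 9.48 and 31.7 CPM with CTL. HFB 6 and CTL 14 again held the high ends. The log2 fold change of -0.69 (SE 0.46) shrank to -0.17 (SE 0.38) without CTL 14, was -0.99 (SE 0.45) without HFB 6 and was -0.48 (SE 0.33) without both libraries.

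Jag1, a Jagged ligand found on many cell types, was the steadiest gene of the group. Its lowest, median and highest levels were 56.1, 64.3 and 78.0 CPM with HFB and 56.8, 72.8 and 80.0 CPM with CTL. The 2 ranges nearly coincided, and the log2 fold change was -0.07 (SE 0.12). Its highest library was 1.43-fold over its lowest, against at least 16.7-fold for Notch2, counted from the smallest detectable level in HFB 5. The spread between libraries of a diet beyond counting error (the biological coefficient of variation of the edgeR fit) was 0.177 for Jag1, and 3.38% of the tested genes had a lower one. It was 0.236 for Hes1, 0.368 for Notch3, 0.389 for Notch1, 0.390 for Dll1, 0.532 for Dll4, 0.562 for Notch4 and 0.634 for Notch2, beside a median of 0.286 over all tested genes. Low genes vary more, and among genes of a similar level 8.10% were under Jag1, 48.1% under Dll1 and 88.2% under Notch2.

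The target Hes1, a repressor that Notch signalling switches on directly in many tissues, was not lower with HFB. Its lowest, median and highest levels were 17.1, 29.1 and 34.0 CPM with HFB and 19.7, 24.99 and 31.2 CPM with CTL. HFB 2 held the lowest value and HFB 5 the highest, the ranges overlapped, and 1 of 6 HFB glands lay under the CTL median. The log2 fold change was 0.17 (SE 0.19), and it lay between 0.11 and 0.28 when each library was left out in turn. Hey1, the other target, had 56 counts in all 12 libraries together. It reached at most 10 counts, in HFB 4 and CTL 8, and 0 in HFB 6 and CTL 14. Its means were 1.67 ± 1.14 CPM with HFB and 2.0 ± 1.49 CPM with CTL (SD, n = 6), and a fit without the filter gave a log2 fold change of -0.21 (SE 0.73).

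The promoters of Hes1 and Notch3 are shown because Hes1 is the classic target of the pathway and Notch3 is the gene that set the list. They are the RefSeq sequences of 250 bases before to 50 after the gene start in the rat build GRCr8, 5′ to 3′ on the strand of the gene. Capitals mark the RBPJ core, searched as TGGGAA and, for the other strand, TTCCCA, which cannot overlap each other.
Hes1 promoter (chr11:84212996-84213295, minus strand): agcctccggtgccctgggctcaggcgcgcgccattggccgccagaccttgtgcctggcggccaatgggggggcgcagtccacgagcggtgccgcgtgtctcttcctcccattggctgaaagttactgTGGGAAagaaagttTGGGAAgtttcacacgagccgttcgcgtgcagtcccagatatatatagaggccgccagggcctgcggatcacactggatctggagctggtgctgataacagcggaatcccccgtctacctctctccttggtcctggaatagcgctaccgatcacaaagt
Notch3 promoter (chr7:11834536-11834835, minus strand): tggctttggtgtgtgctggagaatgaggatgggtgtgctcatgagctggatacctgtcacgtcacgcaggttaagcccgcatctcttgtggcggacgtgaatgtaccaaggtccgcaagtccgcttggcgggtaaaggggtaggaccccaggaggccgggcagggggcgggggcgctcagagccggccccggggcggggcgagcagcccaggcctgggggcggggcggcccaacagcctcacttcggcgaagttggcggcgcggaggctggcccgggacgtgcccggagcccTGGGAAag

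The Hes1 promoter held the core at bases 128 to 133 and again at bases 142 to 147, both on the strand of the gene. The Notch3 promoter held it at bases 293 to 298, past the gene start. Of the 7 genes of the list with a promoter in the table, Notch4 and Dll1 also held 2 matches each, and Notch1, Notch2 and Jag1 held none. For comparison, 25.7% of the 33469 rat promoters of this length held at least 1 match and 3.85% at least 2. Only these letters were searched, so a site spelled otherwise would be missed. These are matches of letters and no binding was measured.

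Read as a group, 7 of the 8 tested genes had a log2 fold change under 0, and the exception was Hes1. Their median was -0.39, beside a median of 0.00 and 49.97% under 0 over all tested genes. Without CTL 14, 5 of the 8 were under 0 and the median was -0.11, and without HFB 6 as well the median was -0.27. Without HFB 5, HFB 6 and CTL 14, 4 of the 8 were under 0, with a median of -0.14. With all libraries, limma voom gave 6 of 8 and -0.14, and the mural and endothelial covariates gave 5 of 8 each, with medians of -0.10 and -0.05. None of the 8 passed the adjusted threshold, and none had diet groups that did not overlap, which was the case for 0.107% of all genes. At an unadjusted p under 0.05, 2.34% of all genes were called and 1.04% were called and lower with HFB. Because the list was picked on Notch3, and Notch1, Notch4, Dll1 and Dll4 share the high values of CTL 14, these counts describe the list and are not 8 separate observations.

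The wider pathway was read from 65 further genes, of which 51 were in the count table and 40 were tested. No gene of the 40 passed the adjusted threshold (edgeR, lowest adjusted p = 0.999). At an unadjusted p under 0.05 there were 2 of the 40, Adam17 and Maml1, both lower with HFB, and none higher. Over all tested genes 2.34% were called at this level, and 1.04% were called and lower with HFB. So small a count is given as a description only. Of the 40, 23 had a log2 fold change under 0 and 17 above 0, with a median of -0.03, and no gene had diet groups that did not overlap.

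By role, 3 of the 6 genes of receptor cleavage were under 0 and 3 above. Adam17, the protease that sheds many membrane proteins and can make the first cut in Notch, had its lowest, median and highest levels at 30.9, 39.8 and 50.8 CPM with HFB and 49.3, 55.9 and 65.2 CPM with CTL. HFB 4 was the only HFB gland above the lowest CTL gland, CTL 10. The log2 fold change was -0.47 (SE 0.14, edgeR adjusted p = 0.999).

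The gamma-secretase subunits Psen2, Ncstn, Aph1a, Aph1b and Psenen had log2 fold changes between -0.01 and 0.36. Maml1, a Mastermind coactivator, had its lowest, median and highest levels at 12.8, 17.5 and 23.6 CPM with HFB and 18.6, 24.2 and 27.8 CPM with CTL, with all 6 HFB glands under the CTL median and a log2 fold change of -0.42 (SE 0.19). Dtx4, a Deltex ubiquitin ligase of receptor turnover, had levels of 1.56, 4.29 and 6.80 CPM with HFB and 3.80, 4.09 and 12.2 CPM with CTL in the same order, and a log2 fold change of -0.43 (SE 0.39). Itch, a ubiquitin ligase that acts on Notch, had levels of 1.2, 12.9 and 22.6 CPM with HFB and 2.82, 17.7 and 22.3 CPM with CTL, and a log2 fold change of -0.42 (SE 0.59). Of the 7 tested genes of receptor turnover, 5 were under 0 and 2 above, with Dtx2, another Deltex gene, at 0.42 (SE 0.31). For Maml1, Dtx4 and Itch the edgeR adjusted p was 0.999 as well.

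The 10 genes of nuclear repression, such as Ctbp1, Hdac1 and Tle3, had a median log2 fold change of -0.01, with 5 on either side of 0. The 4 sugar transferases that modify the receptors were also split evenly, with Lfng at -0.19 and Mfng at 0.25. Of the 5 further target genes, Nrarp, a feedback inhibitor, was at -0.37 (SE 0.44), Heyl, a target known from mural cells, at -0.06 (SE 0.29), Myc at -0.12 (SE 0.19), Hes6 at 0.09 (SE 0.26) and Ccnd1 at 0.10 (SE 0.27). None of these 5 targets passed the adjusted test. Mib1, the only tested enzyme of ligand ubiquitination, was at -0.35 (SE 0.53).

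**Figure D2:**
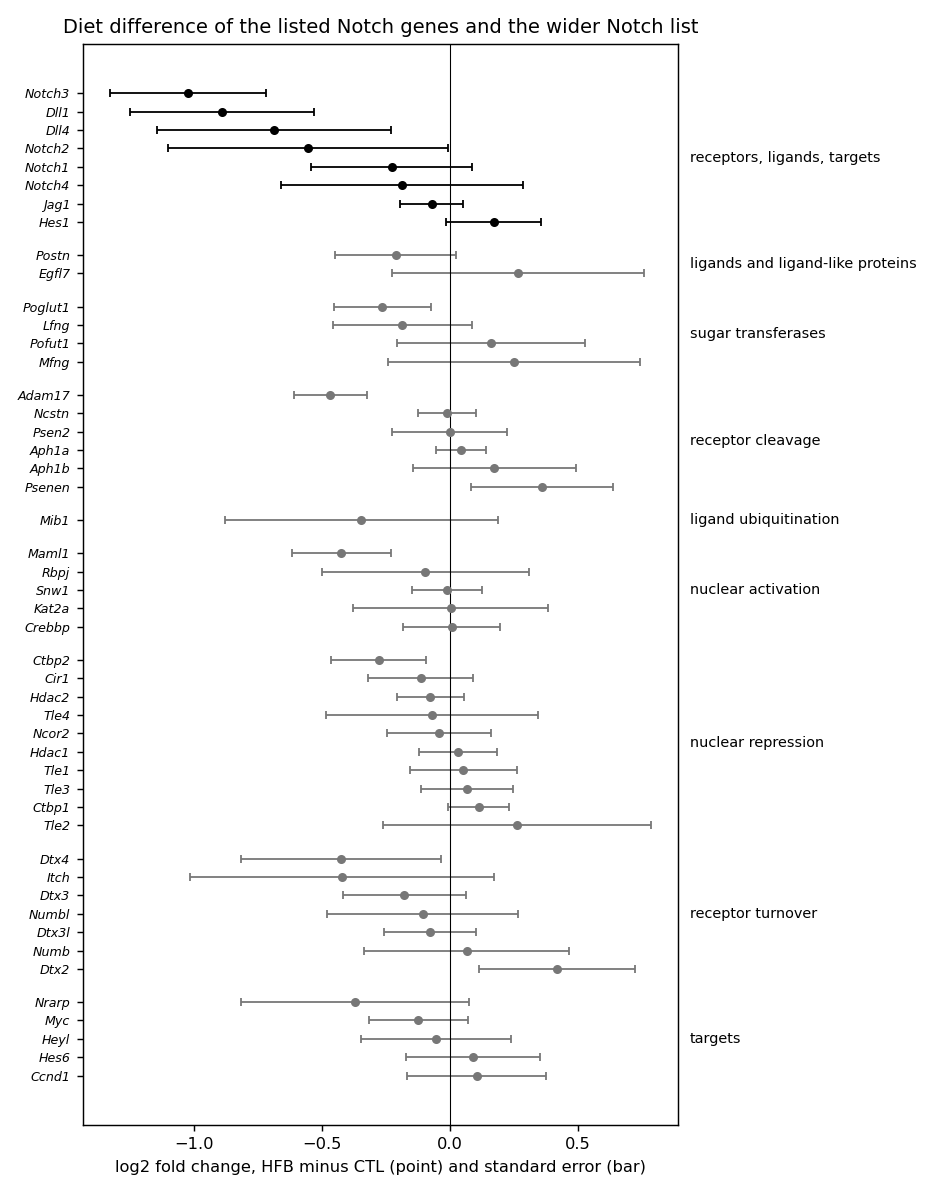
Log2 fold change between the diets (HFB minus CTL, x axis) of the 8 tested Notch genes (black) and of the 40 tested genes of the wider pathway (grey), grouped by role. Points are edgeR estimates from 6 libraries per diet and bars are standard errors. Notch3 (-1.02), Dll1 (-0.89) and Dll4 (-0.69) lie farthest to the left, and Hes1 (0.17) lies to the right of 0.

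The levels of the Notch genes were set beside markers of the cells that can carry them, since in a whole gland fewer cells of a type and less RNA per cell cannot be told apart. The mural score was the mean log2 CPM of 10 markers, among them Pdgfrb, Rgs5 and Myh11. It was 5.60 ± 0.38 with HFB and 5.99 ± 0.35 with CTL (SD, n = 6), a difference of -0.39 (2-sided exact permutation test, p = 0.0996, adjusted over 8 scores 0.641, smallest p possible 0.00216). Of the 10 mural markers, 9 had a log2 fold change under 0, and their summed level ran from 734 to 1475 CPM with HFB and from 951 to 1625 CPM with CTL. Without HFB 6 the difference was -0.52 (unadjusted exact p = 0.0195), and without CTL 14 it was -0.27 (unadjusted exact p = 0.184). Whether the smooth muscle markers Myh11, Tagln, Cnn1 and Mylk came from vessels or from the ductal tree was not tested. In the HFB glands Cnn1 ran from 6.99 to 83.0 CPM and Rgs5 from 8.90 to 13.6 CPM.

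The endothelial score, from 8 markers of which Cldn5 was at 0 and 7 were counted, differed by -0.30 (exact p = 0.253), with a summed level of 201 to 648 CPM with HFB and 207 to 670 CPM with CTL. Its difference was -0.14 without CTL 14, -0.39 without HFB 6 and -0.23 without both libraries. The epithelial score differed by -0.50 (exact p = 0.329), with all 9 of its counted markers under 0 and a summed level of 125 to 704 CPM with HFB and 203 to 698 CPM with CTL. When single libraries were left out, the epithelial difference ran from -0.71 (without CTL 9) to -0.23 (without HFB 1). Of the other scores, the adipocyte (-0.02) and fibroblast (-0.16) scores were lower and the lymphoid (0.67), skeletal muscle (0.52) and red blood cell (0.89, exact p = 0.160) scores higher with HFB in their means, and none of the 8 passed the adjusted threshold. With the mural score as a covariate the log2 fold change of Notch3 was -0.63 (SE 0.33), and with the endothelial score it was -0.70 (SE 0.27). The same covariates took Notch2 to -1.07 and -0.62, Dll1 to -0.45 and -0.50, Dll4 to -0.09 and -0.05, Notch1 to 0.28 and 0.17 and Notch4 to 0.59 and 0.44. The part of vessel or epithelial content in the Notch3 difference was not tested.

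Within the diets, the endothelial score followed Notch4 and Dll4 most closely. After the diet means had been taken out, Notch4 and the endothelial score had Pearson's r = 0.913 (permutation test, adjusted p = 0.0024) and Spearman's rho = 0.888 (adjusted p = 0.00624) over 12 libraries, among 48 relations of 8 genes and 6 scores. For Dll4 they were r = 0.904 (permutation test, adjusted p = 0.00624) and rho = 0.860 (adjusted p = 0.0247). In 4 further relations r alone passed the adjusted threshold, Dll1 (0.833) and Notch1 (0.809) with the endothelial score, Dll4 with the lymphoid score (0.798) and Notch1 with the adipocyte score (-0.751). All 4 missed the adjusted threshold when 2 libraries were left out (adjusted permutation p = 0.551 to 0.833), where Dll4 with the lymphoid score had r = 0.383, and 3 of them, all but Dll1, missed it with a prior count of 0.5. The endothelial markers were themselves split in HFB 6, where Pecam1 (256 CPM) and Esam (162 CPM) were the highest and Cdh5 (2.81 CPM) the lowest of the 12 libraries, and in HFB 5, where Flt1 (1.16 CPM) was the lowest and Esam (40.6 CPM) the third highest. Leaving out HFB 5 and CTL 14, the libraries farthest from the median score, gave r = 0.768 for Notch4 and 0.739 for Dll4, with adjusted permutation p = 0.291 and 0.321. Without HFB 6 and CTL 14 r was 0.810 and 0.747 (adjusted permutation p = 0.200 and 0.321). The sign of both relations held in these sets of 10 libraries, and the adjusted threshold was passed with all 12 and in neither set of 10.

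Notch3 did not follow the mural, the endothelial or the epithelial score beyond the threshold. Its r was 0.475 with the mural score (permutation test, adjusted p = 0.256, rho = 0.427) and 0.620 with the endothelial score (adjusted p = 0.137, rho = 0.336). With the epithelial score r was 0.183 (permutation test, adjusted p = 0.663, rho = 0.231). Without HFB 1 and HFB 2 that r was 0.456 (adjusted permutation p = 0.581). HFB 6 had the second highest mural score of all glands, 6.24, and a Notch3 level of 9.22 CPM, among the lowest. The mural markers were split in this gland: Cnn1 (83.0 CPM) was the highest and Tagln, Myh11 and Pdgfrb the second highest of the 12 libraries, and Mcam (226 CPM) and Abcc9 (6.82 CPM) were the lowest. CTL 14 had the highest mural score, 6.60, and the highest Notch3 level.

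**Figure D3:**
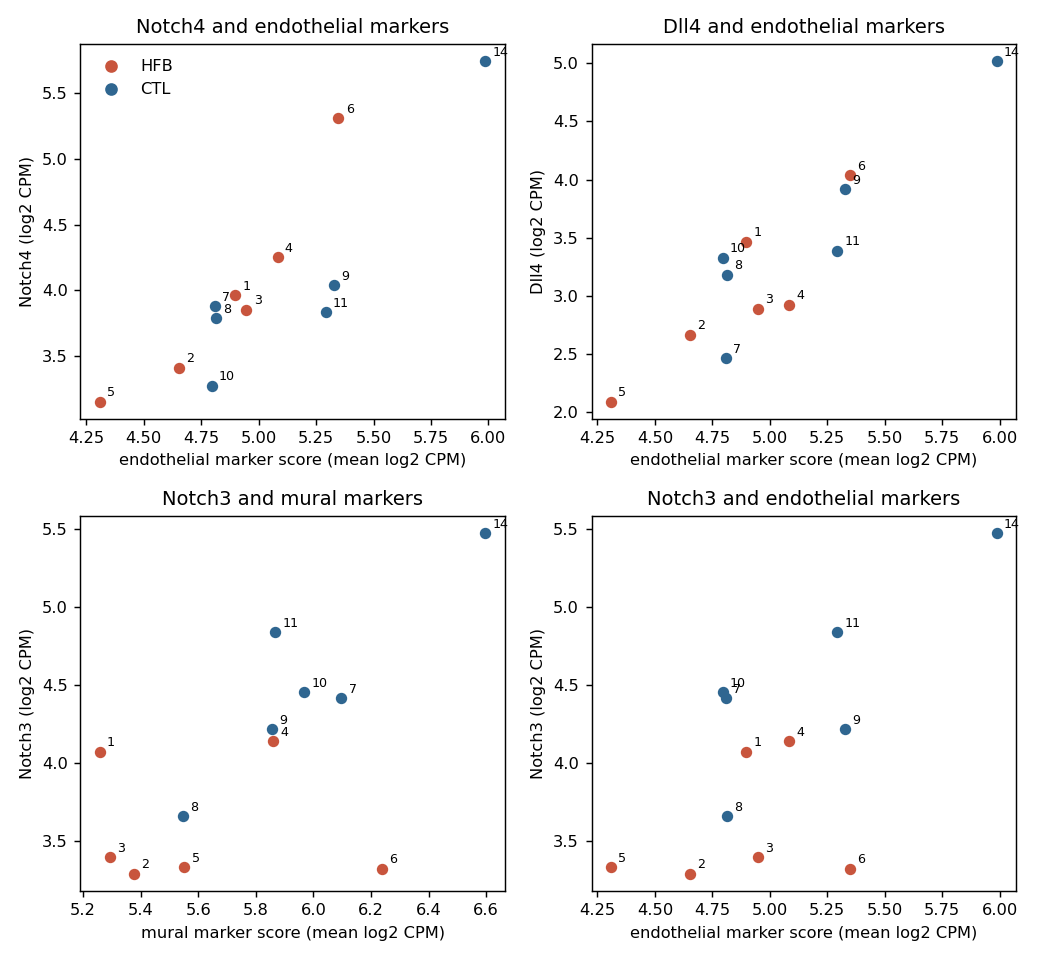
Level of Notch4, Dll4 and Notch3 (y axes, log2 CPM) against the endothelial or mural marker score (x axes, mean log2 CPM of the markers) in the HFB (red) and CTL (blue) glands, with library numbers. Notch4 and Dll4 rise with the endothelial score across the glands, up to CTL 14 at a score of 5.99, while HFB 6 has a mural score of 6.24, from markers split between high and low, and a Notch3 level among the lowest.

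Notch1 and Notch3 varied together within the diets. Their r was 0.870 (permutation test, adjusted p = 0.0435 over 28 pairs of genes, rho = 0.769, adjusted p = 0.061). Without HFB 6 and CTL 14 it was 0.940 (adjusted permutation p = 0.0185), and without HFB 2 and CTL 14, the libraries farthest from the median of Notch3, it was 0.747 (adjusted p = 0.230). CTL 14 and CTL 11 were the highest CTL glands and CTL 8 the lowest for both receptors. Notch4 and Dll4 had r = 0.852 (adjusted permutation p = 0.0435, rho = 0.846), which fell to 0.491 (adjusted p = 0.396) without HFB 6 and CTL 14. In 4 further pairs, Notch1 with Notch4 and with Dll1, and Dll1 with Notch4 and with Dll4, r was 0.755 to 0.7998 (adjusted permutation p = 0.0435), and these pairs and Notch4 with Dll4 missed the adjusted threshold in both sets of 10 libraries. The pairs of genes were compared after their values had been seen.

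For each receptor, the genes that varied most like it within the diets were taken from 9325 genes over 12 libraries, by Pearson's r of log2 CPM and with no test. Notch1 came closest to Med24, Lipa, Cerk, Arid1a and Syk (r = 0.937 to 0.918). All of them were highest in CTL 14, as Notch1 was. Serpinb9, Gle1, Stx16 and Notch1 were among the 5 genes closest to Notch3 (r = 0.905 to 0.870). These too were highest in CTL 14, as Notch3 was. Notch4 came closest to Ccnl1, Elk3, Shank3, Tie1 and Gpr4 (r = 0.967 to 0.958), of which Tie1 is an endothelial receptor and a marker of the endothelial score. Each of these 5 genes was highest in CTL 14 and next highest in HFB 6, as Notch4 was. Apart from the pair of Notch1 and Notch3, no r without CTL 14 is given for the genes named here.

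Notch2 came closest to Chd2, Ubr1, Rbm33, Rock1 and Usp32 (r = 0.984 to 0.963), and these genes were low where Notch2 was low. Of the 40 tested pathway genes, 5 had their 3 lowest libraries in HFB 5, HFB 6 and CTL 14 as Notch2 did, namely Mib1, Rbpj, Tle4, Numb and Itch. Rbpj, the DNA-binding partner of all Notch receptors, was at 15.9, 11.6 and 11.6 CPM in these libraries and at 34.7 to 64.1 CPM in the other 9. Itch was at 2.71, 1.2 and 2.82 CPM there and at 7.90 to 22.6 CPM in the others. The pattern was not particular to the pathway, as 15.7% of all tested genes had the same 3 lowest libraries, against 12.5% of the 40. Without these 3 libraries the log2 fold change was -0.28 (SE 0.32) for Notch2 and -0.61 (SE 0.26) for Notch3.

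**Figure D4:**
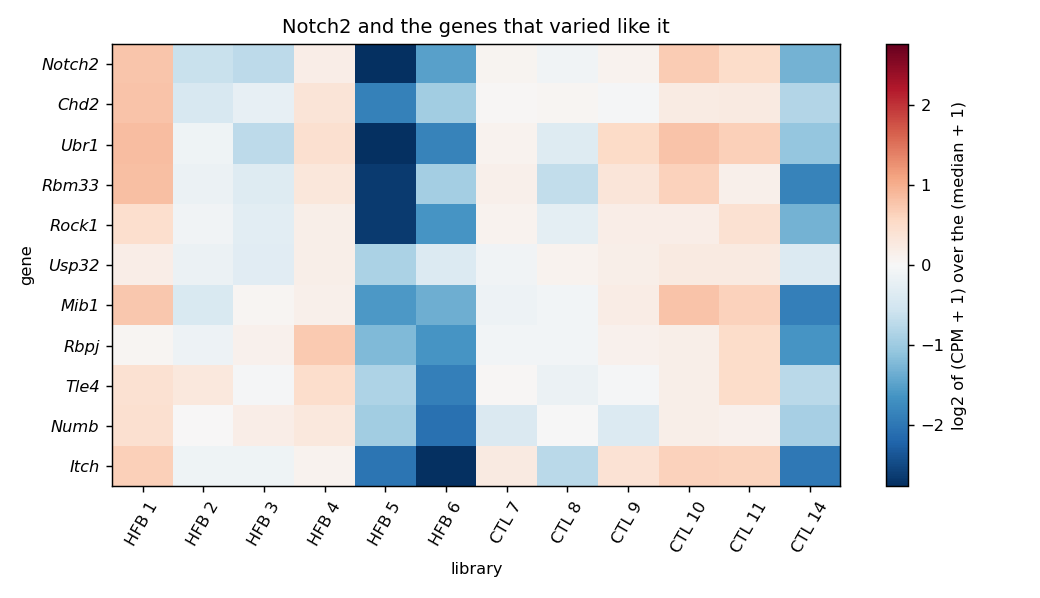
Level of Notch2, of the 5 genes that varied most like it and of the 5 pathway genes with the same 3 lowest libraries, as log2 of (CPM + 1) over the gene's (median + 1), by library (x axis). Blue is under and red over the gene's median across the 12 libraries. HFB 5, HFB 6 and CTL 14 are the blue columns in both diets.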

How the data were processed

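The authors deposited raw counts of reads per gene, by Entrez identifier, without normalization, for 12 whole glands. The submitters' processing notes name bcl2fastq, CASAVA 1.8, TopHat, DESeq and the build rn4. The counting program, the annotation and the use of strand are not given in the sources used here, so reads shared with overlapping or similar genes could not be told apart. Entrez identifiers were matched to RefSeq symbols (GRCr8) for 16351 of 16511 genes.

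Diets were compared gene by gene in edgeR 4.0.16 under R 4.3.3 (TMM, filterByExpr, quasi-likelihood test, HFB against CTL, Benjamini-Hochberg adjustment over 9382 genes), and the code was tested on simulated data. CPM used the totals of the tested genes times the TMM factors, which ranged from 0.891 to 1.14 (CTL 14). Raw totals ranged from 2320267 to 2944680. Scores and correlations used log2 CPM with a prior count of 2. Scores were compared with an exact permutation test, and correlations used diet-centred values and 100000 resamples (scipy 1.17.1). Alternatives were DESeq2 1.42.0, its size factors, upper-quartile scaling, limma 3.58.1 voom with quality weights, other filters, a prior count of 0.5, marker covariates and leaving out libraries. Those without HFB 6 and CTL 14, without HFB 5 as well, with the lymphoid covariate, and the correlations between pairs of genes were added after the values had been seen.

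The members and lists were chosen with earlier results of these data known. Named by rule were all members, the 4 pathway genes with the largest log2 fold change, those under an unadjusted p of 0.05, and the 5 genes most like each receptor. Further pathway genes and markers, named to describe a role or a score, fall outside these rules. Levels were not compared between genes, as no transcript lengths were used. A few genes that these rules name are not reported here, and the pathway counts leave them out.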

Additional observations from a re-analysis of the deposited data

Results flagged for a closer look

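A gland was looked at again when its gap to the nearest gland of its diet was large for the range of the 6 (Dixon's criterion at the 95% level, which chance alone meets in about 1 of 20 groups). Of 30 groups examined, made of 9 genes and 6 scores in each diet, 7 met it, and the glands were HFB 6 and CTL 14 in every case. Among separate groups 1.5 would be met by chance. These groups share the same glands, so no excess over chance is read from the count. Notch4 was at 38.9 CPM in HFB 6, with the next gland at 18.3, and at 52.8 CPM in CTL 14, with the next at 15.7. Dll4 was at 31.7 CPM in CTL 14, with the next at 14.3. In the same glands the adipocyte score was the lowest, at 9.53 in HFB 6 (next 10.66) and 9.45 in CTL 14 (next 10.79), and in CTL 14 the fibroblast score was 10.35 (next 11.29) and the lymphoid score 7.08 (next 2.86). What these glands contained besides fat pad was not tested.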

How the results depend on the processing

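No gene passed the adjusted threshold in any fit listed for edgeR, DESeq2 or limma. The count at an unadjusted p under 0.05 was 220 in edgeR and moved to 613 with limma voom, 2181 and 592 with the mural or endothelial score as a covariate, 365 with the lymphoid score, 431 without HFB 6 and CTL 14 and 509 without HFB 5 as well. Leaving out 1 library at a time gave 135 (without HFB 5) to 587 (without CTL 14). The mural difference of -0.39 ran from -0.52 (without HFB 6) to -0.27 (without CTL 14), and was -0.40 (unadjusted exact p = 0.0397) without both. The fibroblast difference was -0.16 with all libraries (exact permutation p = 0.461, adjusted 0.712). It ran from -0.34 (without CTL 14, unadjusted exact p = 0.0130) to -0.052 (without HFB 6) and was -0.23 (unadjusted exact p = 0.0159) without both. The adipocyte difference of -0.02 ran from -0.26 to 0.20 and changed sign in 6 of 12 such fits, and the lymphoid difference of 0.67 ran from -0.036 (without HFB 6) to 1.54. The cause of these changes was not tested. Notch3, Dll1, Dll4 and Notch2 were negative and Hes1 positive in every fit that kept them, and a minimum of 10 counts in every library left out Notch2, Dll1 and Dll4. Notch1, Notch4 and Jag1 had either sign, Jag1 within 0.13 of 0. No paired analysis was possible because no library number occurs in both diets. Hey1, with 0 to 10 counts per library, was kept only without the filter.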
